A study of Homo sapiens with 5 samples.

Results

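The genes described here code for heat shock proteins, their J-domain partners and the chaperonins, in RNA of a pair of lung adenocarcinoma cell lines mixed in steps. They were taken by name from the protein-coding genes of GENCODE v44: names beginning HSPA, HSPB, HSP90, DNAJA, DNAJB, DNAJC or CCT with a digit, plus HSPD1, HSPE1, HSPH1 and TCP1, leaving out hyphenated readthrough genes. The rule gave 83 of the 61220 genes in the tables, with 601 transcripts and 1.25% of the human reads. Read literally, the prefix HSPB also takes in HSPBAP1 and HSPBP1, whose products bind heat shock proteins and belong to neither family, and they were counted with the small heat shock proteins.

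Chaperones bind unfolded or partly folded proteins and keep them from clumping. HSP70 proteins bind and release short hydrophobic stretches of their clients in a cycle driven by ATP, J-domain proteins (the DNAJ genes) bring clients and start that cycle, and HSP90 acts later on kinases and steroid receptors. Small heat shock proteins hold unfolded proteins without ATP. Chaperonins are barrels that enclose a whole protein: TRiC in the cytosol folds actin and tubulin, and HSPD1 with its lid HSPE1 works in mitochondria. Heat shock factor 1 switches many of these genes on by binding repeated GAA and TTC units in their promoters.

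NCI-H1975 and HCC827 are established human lung adenocarcinoma lines, grown separately to near confluence, with no drug or heat treatment given in the labels. Synthetic spike-in RNAs called sequins were present in each line's RNA, mix A with NCI-H1975 and mix B with HCC827, and poly(A) RNA of the lines was combined by mass. Libraries are named by the NCI-H1975 to HCC827 ratio, so that 100:0 is NCI-H1975 alone, 75:25, 50:50 and 25:75 are the mixtures in order, and 0:100 is HCC827 alone. Each ratio has 1 library, made from 1 ng of mixed RNA by nanopore PCR-cDNA sequencing with 16 PCR cycles, so all libraries share 1 RNA preparation per line. The p-values below therefore rest on departures from a fitted line among these libraries and not on differences between cultures.

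Totals ran from 2932250 to 4058751 reads per library. Levels are given as CPM, which are read counts scaled to a common library size, with the TMM composition correction of edgeR, and always in the order 100:0 to 0:100. A slope is the log2 change from 100:0 to 0:100 along the fitted line, given with its standard error (SE), and adjusted p-values come from edgeR's quasi-likelihood test with Benjamini-Hochberg adjustment over all 13492 genes tested, with a threshold of 0.05. A gene is said to have risen or fallen where it passed. Scaling by library totals instead moved the median slope of all genes from -0.035 to -0.44. The read-weighted mean transcript length fell from 2581 to 2180 bases along the series. Of the labelled cell type's markers, 7 of 7 epithelial genes were detected, with a summed 5616 to 15904 CPM. The leukocyte genes PTPRC and CD3E and the fibroblast gene DCN were at 0 in every library. CD14, another leukocyte gene, had 10, 16, 5, 5 and 0 reads, and COL1A1, a fibroblast collagen, had 532 at 100:0 and 19 at 0:100. Reads summed over 4 leukocyte genes were 12, 19, 9, 8 and 0, and over 3 endothelial genes 3, 4, 4, 4 and 3. Over 4 fibroblast genes they were 630, 605, 408, 177 and 19. With a trend on length removed, 34 chaperone genes changed, beside the 35 described below. The part of the cells or state marked by COL1A1 in the results was not tested.

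Of the 83 genes, 67 were tested, having 10 or more reads in no fewer than 2 libraries. Along the series 13 rose and 22 fell, so 52.2% changed, beside 45.8% of all genes tested (23.5% rose and 22.3% fell). Their median slope of -0.036 was close to the -0.035 of all genes. A slope of at least 1 in size was reached by 8 that rose (13.3% of all genes tested) and 14 that fell (13.7%). With scaling by library totals 9 rose and 36 fell, beside 13.4% and 37.6% of all genes. The 36 include 14 genes that did not pass under TMM scaling, and 18 of the 67 slopes changed sign, of which CCT3 alone had passed. The 16 untested genes had few or no reads: DNAJB8, HSPB2, HSPB3, HSPB7 and CCT8L2 had 0 in every library, which allows at most 3 reads in each, and HSPA6, a strictly inducible HSP70, had 11, 8, 6, 2 and 6 reads. By family the counts are small, and no difference between families was tested. None of the HSP90, HSP70, small heat shock protein or DNAJA genes that were taken by name and tested rose. TRAP1, a mitochondrial HSP90 outside the name rule, did rise (slope 1.21 ± 0.13) and is not counted here. None of the TRiC genes fell (CCT5 did with scaling by library totals), and DNAJC genes moved both ways. A set of 22 genes (8 that rose and 14 that fell) kept its calls under every alternative setting other than merging near-copies.

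**Figure D1:**
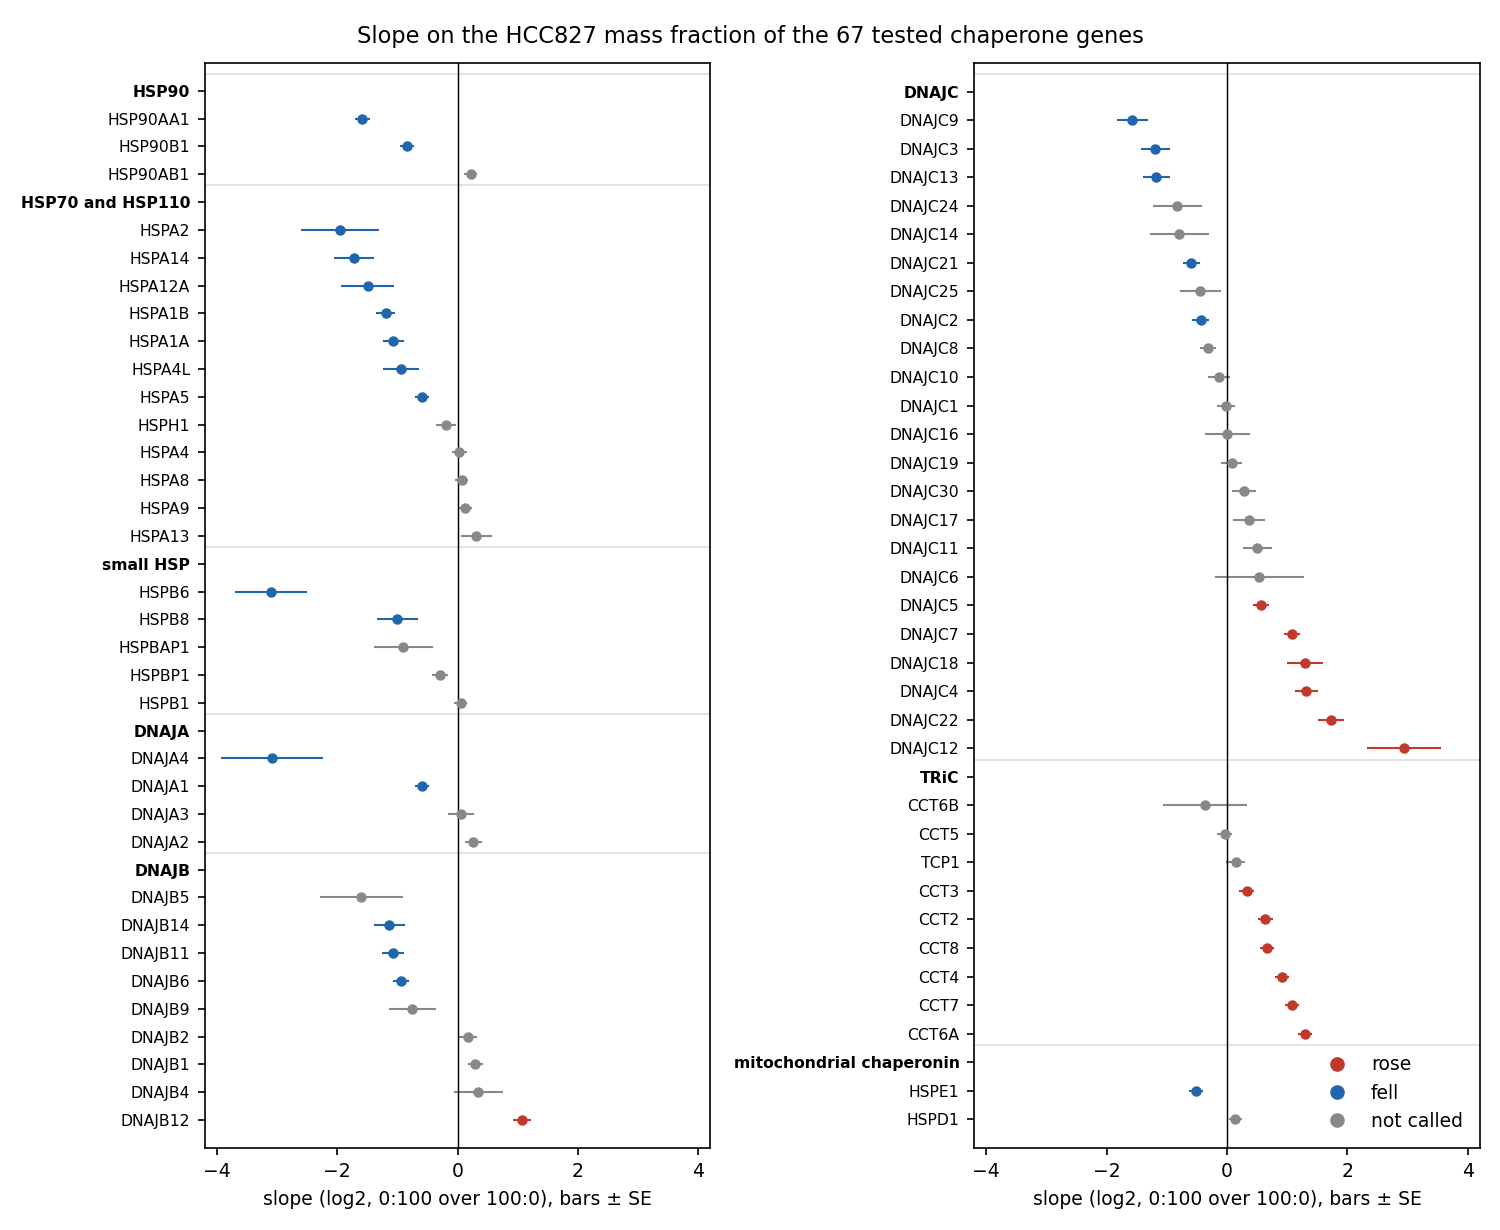
Slope of each of the 67 tested chaperone genes on the HCC827 mass fraction (x axis, log2 change from 100:0 to 0:100; points are fitted slopes, bars are ± SE), grouped by family, with genes that rose in red, fell in blue and did not pass in grey. The HSP90, HSP70, small heat shock protein and DNAJA groups hold no red point, and the TRiC group holds no blue one, although CCT5 fell with scaling by library totals. TRAP1, an HSP90 outside the name rule that rose, is not shown.

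Promoter sequences are shown first, because heat shock elements occur both in genes that fell and in genes that did not pass. RefSeq promoters (GRCh38.p14, 250 bases before to 50 after the start) were matched for 75 of the 83 genes by symbol. The other 8 were not searched, among them CCT6A and DNAJC22, which rose, and HSPA14, which fell. Every element was searched on both strands. The 2-unit element GAANNTTC, which reads the same on either strand, was found in 12 of them and in 6.87% of all 27305 promoters. The other order of units, TTCNNGAA, was not searched by itself, so genes not listed may carry it. The 3-unit element GAANNTTCNNGAA, which contains GAANNTTC, was found in DNAJA1, DNAJB6, HSPA6 and HSPA8 and in 0.487% of all promoters. The endoplasmic reticulum (ER) stress element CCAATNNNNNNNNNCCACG was found in HSPA5 and HSP90B1, and in 0.0806% of all promoters. Capitals mark the match, read 5′ to 3′ on the gene's strand. A match describes letters only, and binding was not measured. The following are the stress-inducible pair on chromosome 6 (chr6:31815425-31815456 and chr6:31827621-31827652, plus strand), in which the elements begin 106 and 105 bases before the start.
HSPA1A: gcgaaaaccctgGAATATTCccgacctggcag
HSPA1B: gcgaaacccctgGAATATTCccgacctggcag
HSPA8, the constitutive HSP70, has a pair of 3-unit matches (chr11:123062349-123062371 and chr11:123062174-123062196, minus strand), beginning 230 and 55 bases before the start.
HSPA8 distal: agcttGAAAGTTCCAGAAcgctg
HSPA8 proximal: gccccTTCTGGAAGGTTCtaaga
DNAJB6 (chr7:157336861-157336897, plus strand) has a 3-unit match and HSPB1 (chr7:76302479-76302510, plus strand) a 2-unit one.
DNAJB6: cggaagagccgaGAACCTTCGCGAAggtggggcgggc
HSPB1: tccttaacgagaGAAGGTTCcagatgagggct
HSPA5 (chr9:125241386-125241414, minus strand) and HSP90B1 (chr12:103930211-103930239 and chr12:103930316-103930344, plus strand) carry the ER stress element.
HSPA5: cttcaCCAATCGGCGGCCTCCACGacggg
HSP90B1 distal: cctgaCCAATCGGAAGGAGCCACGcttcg
HSP90B1 proximal: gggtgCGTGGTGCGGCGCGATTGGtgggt
Of the 12 genes with the 2-unit element 9 were tested, of which 0 rose. DNAJA1, DNAJB6, HSPA1A, HSPA1B, HSPB6 and HSPB8 fell, and HSPA8, HSPB1 and TCP1 did not pass. HSPA5 and HSP90B1 fell. Of all genes tested 22.3% fell and 23.5% rose. Calls of other genes with these elements were not counted, and a link between element and direction was not tested.

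Of the 3 HSP90 genes taken by name 2 fell, beside 22.3% of all genes tested, and TRAP1, outside that rule, rose. HSP90AA1 (chromosome 14, 102080742 to 102139699), the stress-inducible cytosolic HSP90, stood at 2853, 2309, 1894, 1423 and 915 CPM. Each step toward HCC827 was lower, and 100:0 was 3.12-fold above 0:100 (95% counting interval 2.98 to 3.26). Its slope was -1.58 ± 0.13 (SE, edgeR adjusted p = 3.20e-06). HSP90AB1, the constitutive cytosolic form, had 1197, 1283, 1311, 1422 and 1368 CPM. It did not pass the test (slope 0.21 ± 0.10, edgeR adjusted p = 0.104, and -0.19 with scaling by library totals). HSP90B1, the HSP90 of the ER, went from 678 through 599, 540 and 450 to 376 CPM, lower at every step. Its slope was -0.84 ± 0.11 (edgeR adjusted p = 7.83e-05).

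Because a ratio of reads within a library needs no scaling, HSP90AA1 was set over HSP90AB1. This ratio and 2 others below were chosen after values were seen. It was 2.38, 1.80, 1.45, 1.00 and 0.669, falling at every step, so that HSP90AA1 had more reads than HSP90AB1 at 100:0 and fewer at 0:100. The log2 ratio had a slope of -1.81 (exact permutation test over 120 orders of the libraries, two-sided p = 0.0167, the smallest this design allows, and 0.0167 after adjustment over the 3 ratios). In stepwise mixtures of the same RNA pair, a ratio that differs at the ends moves in a single direction apart from counting error. Since the ratios were also picked by their values, the p-values of all 3 give no support and only describe order. Transcripts of the 2 genes aligned at 75.9% identity over 2167 bases. The processed pseudogene HSP90AA2P, 97.1% identical to HSP90AA1 over 2199 bases, had 736 reads against the 33566 of HSP90AA1.

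HSP70 and HSP110 genes fell in 7 of 12 tested cases and rose in 0, with a median slope of -0.77. Of all genes tested 22.3% fell and 23.5% rose, with a median slope of -0.035. The near-identical stress-inducible pair on chromosome 6 went down together. HSPA1A (31815543 to 31817946) stood at 165, 141, 139, 108 and 71.4 CPM, with a slope of -1.07 ± 0.17 (edgeR adjusted p = 0.000263). HSPA1B (31827738 to 31830254) stood at 350, 329, 282, 220 and 149 CPM, with a slope of -1.20 ± 0.15 (edgeR adjusted p = 5.70e-05). Both were lower at every step. Their transcripts are 98.65% identical over 2148 aligned bases, so the split of reads between them is uncertain. Summed as 1 gene they had a slope of -1.17. Of 46 tested protein-coding genes within 1000 kb of them the median slope was 0.85, opposite in sign to theirs. HSPA8, the constitutive HSP70 with most reads of the family, had 993, 962, 990, 1073 and 997 CPM and no trend that passed (slope 0.07 ± 0.11, edgeR adjusted p = 0.626, but -0.34 and adjusted p = 0.0158 with scaling by library totals). Reads of HSPA1A and HSPA1B over those of HSPA8 came to 0.518, 0.489, 0.425, 0.306 and 0.222. This ratio also fell at every step, with a log2 slope of -1.25 (exact permutation test, two-sided p = 0.0167, the smallest possible, and no support for the reasons given for HSP90AA1).

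HSPA5, or BiP, the HSP70 of the ER, stood at 886, 844, 778, 696 and 584 CPM and fell at every step (slope -0.59 ± 0.11, edgeR adjusted p = 0.000985). HSP90B1 and HSPA5, the 2 genes with the ER stress element above, thus both fell. HSPA9, the mitochondrial HSP70, did not pass the test (199, 221, 208, 211 and 226 CPM, slope 0.12 ± 0.12). HSPA4 and HSPH1, HSP110-type exchange factors that reset HSP70, also did not pass, with slopes of 0.03 ± 0.13 and -0.20 ± 0.17, but with library totals both fell (slopes -0.38 and -0.60, edgeR adjusted p = 0.0228 and 0.00946). Members with fewer reads also fell. HSPA14, which works at the ribosome, went from 19.1 through 13.4, 9.24 and 8.39 to 5.58 CPM (slope -1.72 ± 0.33, edgeR adjusted p = 0.000995), and MSANTD7 overlaps it on the same strand. HSPA12A, a distant HSP70 relative, had 13.3, 7.88, 6.16, 7.34 and 3.72 CPM (slope -1.49 ± 0.44, edgeR adjusted p = 0.0140, and 0.255 without the 100:0 library). HSPA2, known from male germ cells, had 34, 33, 17, 20 and 2 reads. At 100:0 its level was 13.5-fold that at 0:100 (counting interval 3.45 to 116), and its slope of -1.96 ± 0.65 (edgeR adjusted p = 0.0253) was lost without the 0:100 library (0.241). HSPA4L fell as well, with a slope of -0.94 ± 0.29, a call lost under at least 1 alternative.

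**Figure D2:**
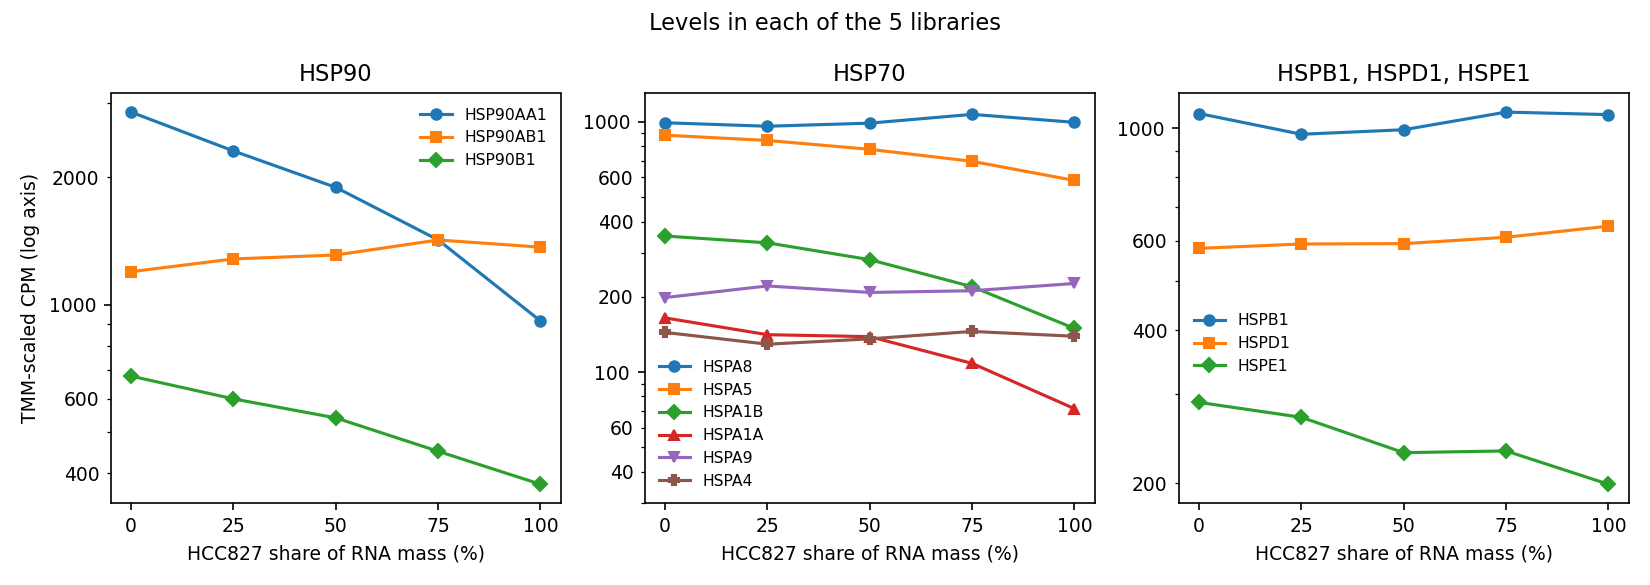
TMM-scaled CPM (y axis, log scale) against the HCC827 share of RNA mass (x axis, percent) for HSP90 genes, HSP70 genes and HSPB1, HSPD1 and HSPE1, with 1 point per library and no replicates. HSP90AA1 crosses HSP90AB1 near 75% HCC827, and HSPA1A, HSPA1B, HSPA5 and HSP90B1 decline while HSPA8 stays between 962 and 1073 CPM.

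Among small heat shock proteins the abundant HSPB1, which holds unfolded proteins and binds actin, had 1068, 972, 993, 1075 and 1063 CPM. Its slope of 0.05 ± 0.11 did not pass (edgeR adjusted p = 0.730), and with scaling by library totals it was -0.36 (adjusted p = 0.0135). HSPB6, a small heat shock protein best known from muscle, had 82, 61, 38, 24 and 0 reads on chromosome 19 (35754566 to 35758079). It was lower at every step and at least 21.7-fold lower at 0:100 than at 100:0, taking 3 reads as the limit for a count of 0 (fitted slope -3.10 ± 0.60, edgeR adjusted p = 0.00111, and 0.0912 by DESeq2). A long noncoding RNA on the opposite strand of HSPB6 had 49 reads at 100:0 and 0 at 0:100. Whether the counting used strand is not given in the sources used here, so reads of the overlapping pair cannot be told apart. HSPB8, which works with BAG3, had 15.3, 16.0, 12.8, 11.9 and 6.69 CPM (slope -1.003 ± 0.34, edgeR adjusted p = 0.0275, and 0.306 without the 0:100 library). HSPBAP1 and HSPBP1 did not pass, but fell with library totals (slopes -1.31 and -0.70, edgeR adjusted p = 0.0390 and 0.000749).

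J-domain proteins are sorted into classes A, B and C by their domains. Of 4 DNAJA genes 2 fell, beside 22.3% of all genes tested. DNAJA1, the main cytosolic class A partner of HSP70, had 225, 202, 183, 171 and 145 CPM, lower at every step (slope -0.60 ± 0.11, edgeR adjusted p = 0.000995). DNAJA4 had 33, 39, 33, 4 and 0 reads. The fall thus lay in the last 2 libraries, and the level was at least 8.72-fold lower at 0:100 than at 100:0 (fitted slope -3.09 ± 0.84, edgeR adjusted p = 0.00941). The call was lost without the 0:100 library (adjusted p = 0.0723) or without 25:75 (0.0608). DNAJA4 overlaps SKIC8 on the opposite strand. DNAJA2 and the mitochondrial DNAJA3 did not pass.

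In class B, 3 of 9 tested genes fell and 1 rose, beside 22.3% and 23.5% of all genes tested. DNAJB6, a suppressor of polyglutamine aggregation and the class B gene with most reads, had 204, 188, 171, 132 and 106 CPM, and its slope was -0.95 ± 0.13 (edgeR adjusted p = 0.000112). DNAJB11, the J-protein partner of BiP in the ER, had 78.4, 63.7, 64.4, 41.9 and 37.2 CPM and a slope of -1.07 ± 0.18 (edgeR adjusted p = 0.000419). DNAJB14 and DNAJB12 are both J-proteins of the ER membrane that help to remove misfolded membrane proteins. They moved in opposite directions. DNAJB14 went from 28.9 through 22.2, 16.2 and 15.0 to 13.8 CPM (slope -1.14 ± 0.26, edgeR adjusted p = 0.00313, and 0.0708 without the 100:0 library). DNAJB12 went from 37.4 through 48.4, 53.4 and 67.5 to 80.7 CPM, higher at every step (slope 1.07 ± 0.15, edgeR adjusted p = 0.000124). DNAJB1, the classical inducible partner of HSPA1A, had 112, 110, 119, 122 and 136 CPM and did not pass (slope 0.29 ± 0.12, edgeR adjusted p = 0.0701). It overlaps TECR on the opposite strand.

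In class C, 6 of 23 tested genes rose and 5 fell, with a median slope of 0.0069, shares near the 23.5% and 22.3% of all genes. DNAJC12, a partner of aromatic amino acid hydroxylases, had 2, 11, 23, 19 and 27 reads. Its level at 0:100 was 17.0-fold that at 100:0 (counting interval 4.28 to 148), with a slope of 2.94 ± 0.61 (edgeR adjusted p = 0.00175). DNAJC22, a membrane J-protein, had 15.0, 19.2, 22.8, 33.6 and 49.1 CPM (slope 1.73 ± 0.22, edgeR adjusted p = 4.97e-05), and it was higher at every step. DNAJC4 had 25.3, 32.9, 40.8, 59.8 and 59.5 CPM (slope 1.32 ± 0.19, edgeR adjusted p = 0.000152). Its neighbour NUDT22 overlaps it on the same strand. DNAJC18 had 10.6, 15.5, 14.4, 25.9 and 25.7 CPM (slope 1.30 ± 0.29, edgeR adjusted p = 0.00310). DNAJC7, a co-chaperone that contacts both HSP70 and HSP90, had 64.2, 77.4, 96.0, 124 and 129 CPM (slope 1.08 ± 0.14, edgeR adjusted p = 5.40e-05). It overlaps CNP and NKIRAS2 on the opposite strand. DNAJC5, a synaptic vesicle J-protein with most reads of class C, had 82.2, 90.6, 95.2, 115 and 119 CPM (slope 0.56 ± 0.13, edgeR adjusted p = 0.00342, but 0.326 with scaling by library totals).

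Those class C genes that fell include a histone partner and an ER protein. DNAJC9, which binds histones H3 and H4, had 32.7, 28.5, 22.6, 15.7 and 10.4 CPM, lower at every step (slope -1.57 ± 0.25, edgeR adjusted p = 0.000291). FAM149B1 overlaps it on the opposite strand. DNAJC3, an ER J-protein also known as an inhibitor of eIF2alpha kinases, had 44.2, 49.6, 35.4, 26.2 and 21.2 CPM (slope -1.19 ± 0.24, edgeR adjusted p = 0.00125). DNAJC13, which acts on endosomes, had 44.8, 32.0, 27.7, 27.3 and 17.1 CPM (slope -1.17 ± 0.23, edgeR adjusted p = 0.00102). PMPCB and PSMC2 overlap DNAJC2 on the opposite strand. DNAJC21 and DNAJC2, both linked to ribosomes, had slopes of -0.59 ± 0.15 and -0.44 ± 0.15, the latter lost under at least 1 alternative. Across the 3 classes, the J-proteins of the ER lumen that passed, DNAJB11 and DNAJC3, fell with HSPA5, whereas DNAJC10 (slope -0.13 ± 0.18) and DNAJB9 (-0.75 ± 0.39) did not pass. With library totals these 2 fell as well (slopes -0.54 and -1.16, edgeR adjusted p = 0.0229 and 0.0248).

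TRiC is built of 8 different subunits, and 6 of the 9 tested TRiC genes rose, beside 23.5% of all genes tested. The exceptions were CCT5, TCP1 and CCT6B, a testis form with 79 reads. With scaling by library totals CCT2, CCT3 and CCT8 lost their calls and CCT5 fell, as given below. Summed over the 8 somatic subunits the level was 1673, 1963, 2216, 2636 and 2934 CPM, 1.75-fold higher at 0:100 than at 100:0. As a share of all reads of a library, the 10 TRiC genes went from 0.194% to 0.255%. CCT6A (chromosome 7, 56051685 to 56063989) had 378, 525, 635, 804 and 945 CPM and the largest slope of the TRiC genes, rising 2.50-fold (counting interval 2.34 to 2.68), at 1.30 ± 0.12 (edgeR adjusted p = 5.97e-06). CCT7 had 292, 398, 464, 532 and 647 CPM (slope 1.08 ± 0.12, edgeR adjusted p = 2.15e-05). CCT4 had 166, 208, 226, 286 and 313 CPM (slope 0.91 ± 0.12, edgeR adjusted p = 6.05e-05). A long noncoding RNA with 427 reads overlaps CCT4 on the opposite strand. CCT6A, CCT7 and CCT4 were higher at every step and also rose with scaling by library totals.

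Smaller rises depended on the scaling. CCT8 had 150, 173, 190, 224 and 235 CPM (slope 0.66 ± 0.12, edgeR adjusted p = 0.000523, and 0.0748 with library totals). CCT2 had 136, 158, 180, 211 and 205 CPM (slope 0.64 ± 0.13, edgeR adjusted p = 0.00129, and 0.142 with library totals). CCT3 had 245, 241, 240, 289 and 297 CPM, with the rise in the last 2 libraries. Its slope of 0.33 ± 0.12 passed narrowly (edgeR adjusted p = 0.0440), was -0.08 with library totals and did not pass under DESeq2 (adjusted p = 0.0543), with the length trend removed (0.155), with other read filters (0.0690 and 0.104) or when 75:25, 50:50, 25:75 or 0:100 was left out. CCT5 had 230, 196, 209, 218 and 212 CPM (slope -0.04 ± 0.13), fell with library totals (slope -0.44, edgeR adjusted p = 0.0105), and its reads may be mixed: a long noncoding RNA with 1005 reads overlaps it on the opposite strand. TCP1, the gene that gave the complex its name, had 75.4, 64.2, 70.6, 71.0 and 81.4 CPM (slope 0.14 ± 0.16, but -0.26 with library totals), and ACAT2 overlaps it on the opposite strand.

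Subunits enter the complex in equal numbers, and their RNAs shifted against each other. As a share of the reads of the 8 subunits, which no scaling alters, CCT6A went from 22.6% through 26.8, 28.7 and 30.5% to 32.2%. CCT5 went the other way, from 13.8% through 9.97, 9.44 and 8.27% to 7.22%. CCT3 fell from 14.6 to 10.1% of these reads, and TCP1 from 4.51 to 2.78%. CCT4 stayed between 9.93 and 10.8%.

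**Figure D3:**
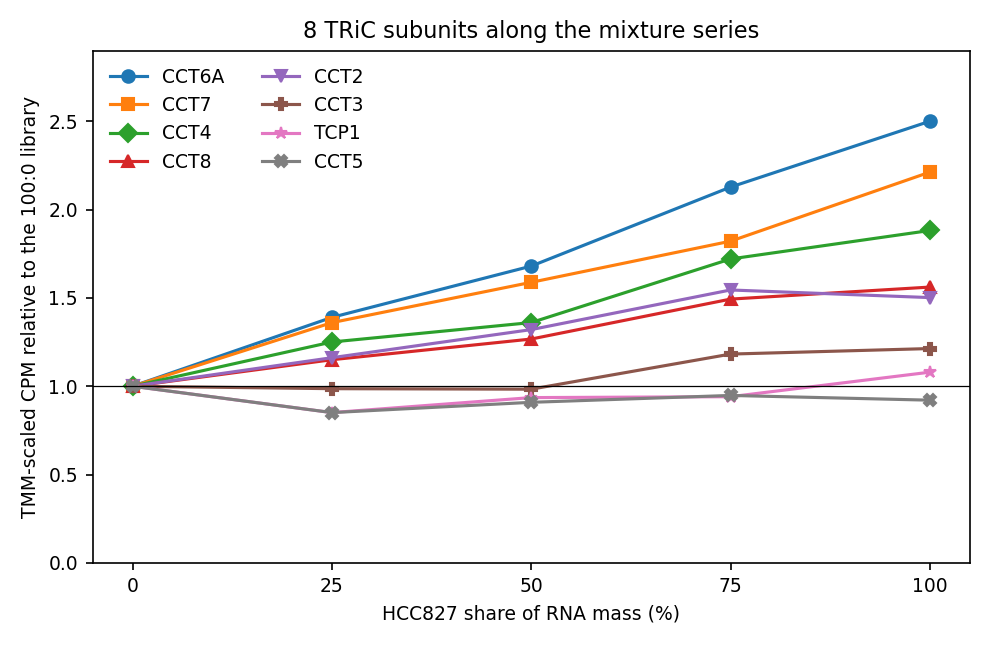
TMM-scaled CPM of the 8 somatic TRiC subunits divided by the value at 100:0 (y axis, linear) against the HCC827 share of RNA mass (x axis, percent), with 1 point per library. CCT6A ends highest at 2.50 times its 100:0 value, followed by CCT7, and CCT5 and TCP1 stay near 1.

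CCT6A lies at 7p11.2 among genes that rose with it. Within 1000 kb of its start there were 10 other tested protein-coding genes, of which 8 rose and 0 fell, with a median slope of 1.54 and a range from 0.29 to 3.28. CHCHD2, a mitochondrial protein gene 54.8 kb away, had a slope of 1.77 ± 0.15, SUMF2 at 12.3 kb 1.57 ± 0.14, and MRPS17 at 99.8 kb 1.70 ± 0.14. ZNF713 at 164 kb had 1.22 ± 0.36. Beyond it slopes were 3.13 ± 0.34 for VOPP1, 3.28 ± 0.43 for LANCL2 and, just outside the window, 2.96 ± 0.38 for EGFR, the epidermal growth factor receptor. PSPH, whose start is 0.081 kb from that of CCT6A, did not pass (0.29 ± 0.12, edgeR adjusted p = 0.0601). Around other TRiC genes the medians within 1000 kb were -0.02 over 16 genes for CCT7 and -0.52 over 10 for CCT4. Over the chaperone genes that passed and had at least 5 tested neighbours, 18 of 32 (56.3%) shared the sign of their neighbours' median slope, beside 73.6% of 5008 protein-coding genes that passed.

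**Figure D4:**
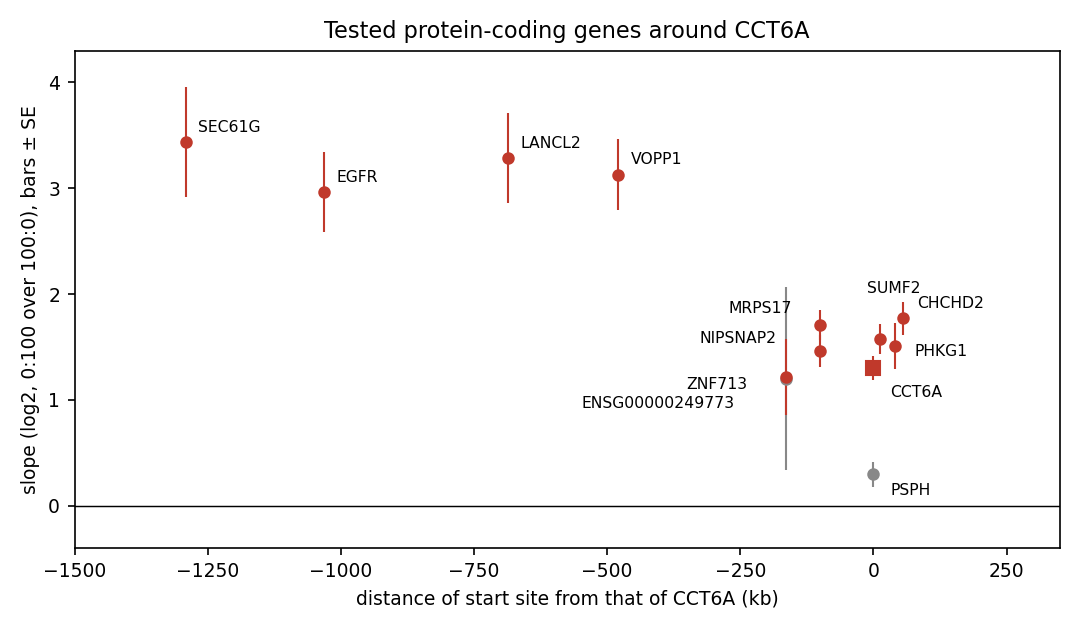
Slope (y axis, log2 change from 100:0 to 0:100, bars ± SE) of tested protein-coding genes by distance of their start site from that of CCT6A (x axis, kb), with CCT6A as a square, genes that rose in red and those that did not pass in grey. All points lie above 0, with EGFR, LANCL2, VOPP1 and SEC61G highest and PSPH, next to CCT6A, lowest at 0.29.

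HSPD1 and HSPE1 lie head to head on chromosome 2 and code for the barrel and the lid of the mitochondrial chaperonin. HSPD1 had 580, 592, 593, 610 and 641 CPM and did not pass (slope 0.13 ± 0.11, edgeR adjusted p = 0.330, but -0.27 and 0.0430 with library totals). HSPE1 had 289, 270, 230, 232 and 199 CPM and fell (slope -0.52 ± 0.12, edgeR adjusted p = 0.00333). Within each library the reads of HSPE1 over those of HSPD1 were 0.498, 0.456, 0.388, 0.380 and 0.311, lower at every step. The log2 slope was -0.65 (exact permutation test, two-sided p = 0.0167, the smallest possible, and no support for the reasons given for HSP90AA1). Their gene models overlap on opposite strands, and where strand was not used in counting, reads from the overlap cannot be told apart.

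Isoforms were compared next. Of the 601 transcripts 205 were tested, of which 35 rose and 36 fell, beside 17.5% and 16.1% of all 31758 transcripts tested. None of 42 genes with several tested transcripts changed isoform usage (edgeR diffSpliceDGE with Simes p-values, adjusted over 7455 genes, of which 0.402% passed). At an unadjusted p under 0.05 there was 1, DNAJC17, and by the gene-level F test 0 passed after adjustment and 3 before (0.885% of all genes passed). HSP90AA1 shows the pattern: HSP90AA1-201 held 49.4, 50.3, 50.5, 51.9 and 50.3% of the reads of its tested transcripts while the gene fell. HSP90AA1-204, annotated as subject to nonsense-mediated decay, held 15.8, 15.5, 14.9, 14.2 and 14.1%. For CCT6A, CCT6A-201 stayed between 38.9 and 41.7% and CCT6A-202 between 33.5 and 37.7%. How reads of similar isoforms were divided sets these shares, and no difference in usage was detectable at this depth.

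Partner proteins were read from 2 lists. Among co-chaperones, heat shock factors and related folding genes, 13 of 46 tested genes rose and 8 fell, with a median slope of 0.03, and 45.7% changed, which is close to the 45.8% of all genes. Without the 0:100 library 13 changed. HSF1, the heat shock factor itself, had 62.2, 92.0, 107, 151 and 180 CPM and a slope of 1.49 ± 0.14 (edgeR adjusted p = 6.22e-06). HSF1 RNA thus rose while that of HSPA1A and HSPA1B fell. The activity of HSF1 was not measured, and a link between these changes was not tested. FKBP4, an HSP90 partner of steroid receptors, rose by 1.55 ± 0.13, and its relative FKBP5 had a slope of -1.02 ± 0.33. TRAP1, the mitochondrial HSP90, rose (slope 1.21 ± 0.13). AHSA1, which speeds the ATPase of HSP90, fell along with HSP90AA1 (slope -0.75 ± 0.12), and so did BAG3, the partner of HSPB8 (-0.59 ± 0.16). SERPINH1, the collagen chaperone, had 1133 reads at 100:0 and 123 at 0:100 and the steepest fall of the list (-2.51 ± 0.30), beside the fall of COL1A1 given above.

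Genes of ER folding and the unfolded protein response formed the other list. Of 32 tested genes 12 fell and 4 rose, beside 22.3% and 23.5% of all genes tested, the median slope was -0.33, and 50.0% changed. With scaling by library totals 23 fell and 3 rose, beside 37.6% and 13.4% of all genes. CALR, a calcium-binding chaperone of glycoproteins, stood at 1221, 1004, 890, 776 and 618 CPM (slope -0.93 ± 0.11, edgeR adjusted p = 2.43e-05). PDIA3 and PDIA6, which rearrange disulfide bonds, had slopes of -0.88 ± 0.15 and -0.77 ± 0.13. SEL1L, a core subunit of the ER degradation machinery, had a slope of -1.58 ± 0.17. All these fell with HSPA5 and HSP90B1. Going the other way, OS9, a lectin of that same machinery, stood at 194, 837, 1398, 2161 and 2774 CPM (slope 3.46 ± 0.42, edgeR adjusted p = 3.33e-05), and ATF4, a transcription factor of the unfolded protein response, rose by 0.83 ± 0.12.

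**Figure D5:**
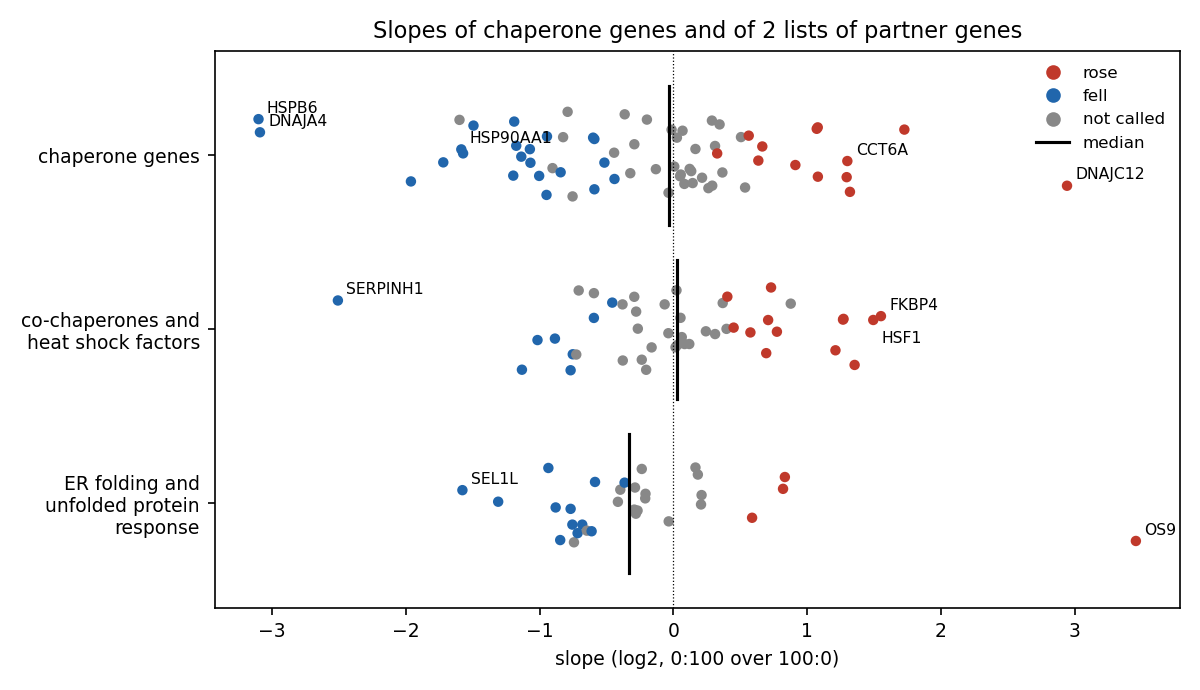
Slopes (x axis, log2 change from 100:0 to 0:100) of the tested chaperone genes, of co-chaperones and heat shock factors and of ER folding genes, with 1 point per gene, colour by call and a black bar at each median. Vertical position within a row is random, and the medians are -0.036, 0.027 and -0.33.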

How the data were processed

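The authors deposited 1 table per library with transcript identifiers, lengths and estimated counts of reads per transcript, unscaled. Per the submitters' processing notes, minimap2 2.24, Salmon 1.9.0 and build GRCh38 were used; the annotation release and strand use are not given in the sources used here. The 2 values that were not whole were rounded, and 161 identifiers listed again were summed. GENCODE v44 paired 224076 of 227751 human transcripts with genes (98.6% of human reads). Gene and transcript slopes on the HCC827 mass fraction were fitted in edgeR 4.0.16 (R 4.3.3) with TMM scaling over features reaching 10 reads in 2 or more libraries, and DESeq2 1.42.0 served as an alternative. On simulated counts with dispersion 0.01, the fit over 13492 genes recovered 41 of 96 genes changed 2-fold and 81 of 95 changed 4-fold, with 10 false calls. That simulation changed 200 genes, whereas 6175 passed in the data, so its rates need not hold for the fit described here. The fitted biological coefficient of variation was 9.11%. No molecular identifiers were given, so counting intervals (95%) and the limit of 3 reads for a count of 0 cover counting error only. Genes are named in full where they passed with a slope of at least 1 in size, held most reads of a family, or belong to TRiC or the mitochondrial chaperonin; up to 4 further examples per family follow the size of the slope, and HSP90AB1, HSPA9, HSPA4, HSPH1, DNAJB1, DNAJB9, DNAJC10, DNAJA2 and DNAJA3 were added after values were seen, as were the promoter sequences shown and the genes named from the 2 lists. The members and lists were chosen with earlier results of these data known. Alternatives were other scalings, filters, tests, transcript sets, a length correction, merged near-copies and leaving out each library.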

Additional observations from a re-analysis of the deposited data

How the results depend on the processing

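No paired analysis was possible because each ratio has 1 library. The count of 35 chaperone genes lay between 28 and 45 under every setting (28 to 34 when 1 library was left out), and between 28 and 35 of the main calls kept their direction. Without the 0:100 library the co-chaperone list had 13 changed genes (13 to 21 over the libraries left out) and the transcripts 45 (45 to 67), whereas the ER list had 14 to 17 and isoform usage 0 to 0. Library totals gave 26 changed ER genes, and DESeq2's Wald test 47 transcripts. With library totals 18 of the 67 slopes changed sign, among them CCT3 (-0.080), HSPA8 (-0.34), HSPB1 (-0.36), HSPD1 (-0.27) and TCP1 (-0.26). HSPB1, near 0, also did so under the stricter read filter (-0.0045) and after the length correction (-0.21). When 1 library was left out, slopes that did not pass spanned 0 for HSPB1 (-0.0014 to 0.21), CCT5 (-0.12 to 0.17) and TCP1 (-0.057 to 0.42). The cause was not tested. DESeq2 lost 6 calls: HSPB6 (adjusted p = 0.0912), HSPA12A (0.0550), HSPB8 (0.0817), CCT3 (0.0543), HSPA4L (0.0594) and DNAJC2 (0.0831). Library totals lost CCT2, CCT3, CCT8 and DNAJC5. Leaving out 1 library gave the 3 read ratios exact permutation p-values of 0.0417 to 0.0833. With 4 libraries no value under 0.0417 is possible, so these too only describe order. Depth limits genes with few reads, such as HSPB6, DNAJA4, HSPA2 and DNAJC12.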
